A study of Mus musculus with 8 samples.

Results

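ADAMTS proteases (a disintegrin and metalloproteinase with thrombospondin motifs) are secreted zinc endopeptidases of the extracellular matrix, and 9 of their genes, Adamts1, Adamts2, Adamts4, Adamts5, Adamts8, Adamts9, Adamts10, Adamts12 and Adamts15, were compared between the mouse cornea and limbus. The genes were found by their symbol in the deposited table, where all 9 are among 23420 named genes, and all 9 had a mean above 0, as did 17442 genes in all. Total RNA was sequenced from wild type C57BL/6J mice aged 8 weeks. The central cornea was dissected as a corneal button and the limbal rim, the ring between cornea and conjunctiva, was separated from it, and tissue from several eyes was pooled before extraction. The labels list 8 samples, 4 for each tissue, but the table holds no value for a single sample. From it, 1 number of reads per gene could be recovered for each tissue, 26104317 reads on named genes for the cornea and 21182025 for the limbus, so each tissue is treated as 1 library. With 1 library per tissue there is no replicate spread and no test between tissues, and each interval given below covers counting error alone.

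ADAMTS proteases are made as inactive proproteins, which furin-like convertases activate by removing the propeptide, and their thrombospondin repeats and other ancillary domains hold them to the matrix and to their substrates. One branch of the family cuts the large hyaluronan-binding proteoglycans aggrecan and versican, another removes the N-propeptide of fibrillar procollagens, and others act on cartilage oligomeric matrix protein or bind fibrillin microfibrils. Their activity is limited by tissue inhibitors of metalloproteinases, above all Timp3, and by uptake through the scavenger receptor Lrp1. In the eye they are known from collagen fibrils and microfibrils, and inherited defects of ADAMTS10 and ADAMTS17 displace the lens.

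The part of each gene that makes the enzyme a protease is shown first, since it is what all 9 genes share. The coding stretch of 36 bases around the zinc-binding site was read from the longest coding transcript of each gene (GENCODE annotation of GRCm38, coding strand, 5′ to 3′). Capitals mark the codons of the 3 histidines that hold the zinc ion and of the catalytic glutamate.
Adamts1: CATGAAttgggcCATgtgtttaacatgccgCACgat
Adamts4: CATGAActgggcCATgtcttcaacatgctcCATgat
Adamts5: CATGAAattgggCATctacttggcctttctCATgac
Adamts8: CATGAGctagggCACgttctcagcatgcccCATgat
Adamts9: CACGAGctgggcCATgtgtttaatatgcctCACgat
Adamts15: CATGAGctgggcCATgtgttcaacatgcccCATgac
Adamts2: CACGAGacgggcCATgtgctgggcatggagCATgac
Adamts12: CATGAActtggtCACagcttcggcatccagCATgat
Adamts10: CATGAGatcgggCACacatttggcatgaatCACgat

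Of the 36 positions, 14 held the same base in all 9 genes, and 8 of those were among the 12 bases in capitals. Over the 36 pairs of genes the identity ran from 55.6% to 88.9% with a median of 65.3%, and it was highest between Adamts4 and Adamts15. In every gene the stretch crosses an exon-exon junction. The junction lies after base 10 in Adamts1, Adamts4, Adamts5, Adamts8 and Adamts15, and after base 17 in Adamts9, Adamts2, Adamts12 and Adamts10. On GRCm38 the stretch of Adamts1 lies at chr16:85799188-85799545 on the minus strand, in exons 3 and 4, around an intron of 322 bases. The stretch of Adamts15 lies at chr9:30911252-30911690 on the minus strand, in exons 2 and 3, around an intron of 403 bases, and that of Adamts10 at chr17:33538157-33538282 on the plus strand, in exons 9 and 10, around an intron of 90 bases. The other stretches lie at chr1:171253210-171253918 (Adamts4), chr16:85878012-85887826 (Adamts5), chr9:30952721-30953381 (Adamts8), chr6:92905282-92908493 (Adamts9), chr11:50775403-50776137 (Adamts2) and chr15:11241529-11255567 (Adamts12), each with 1 intron inside.

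There are 2 pairs of neighbours among the 9 genes. Adamts1 (chr16:85793827-85803113) and Adamts5 (chr16:85856173-85901828) lie 53.1 kb apart on the minus strand, and Adamts15 (chr9:30899155-30922452, minus strand) and Adamts8 (chr9:30942562-30963838, plus strand) start 20.1 kb apart in opposite directions, with 0 coding genes between either pair. The other genes are at chr1:171250421-171260637 (Adamts4), chr6:92772699-92943492 (Adamts9), chr11:50602084-50807573 (Adamts2), chr15:11064790-11349231 (Adamts12) and chr17:33524204-33553782 (Adamts10). Genes annotated on the opposite strand overlap Adamts4, Adamts8, Adamts9 and Adamts2, and since it is not stated whether the counting used strand, their reads could include some from those genes.

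All 9 genes had more reads in the limbus than in the cornea beyond counting error, with ratios of 2-fold or more, although the interval of Adamts8 reached below 2-fold. Together they had 292 corneal and 1785 limbal reads. Among the 15572 genes with more than 3 reads in a library, 21.7% were higher in the limbus by 2-fold or more and 9.21% were higher in the cornea by as much. Beyond counting error, 35.5% had more limbal and 36.7% more corneal reads. The log2 ratio, limbus over cornea after dividing the reads of each tissue by its size factor, was 3.47 as a median over the 9 genes and 0.01 over all those genes. The counts in the cornea were low, with fewer than 10 reads for 6 of the genes and 0 reads for 2. Adamts4, Adamts8, Adamts12 and Adamts15 had 3 corneal reads or fewer. These 4 genes passed the limit of more than 3 reads in a library through the limbus alone, so they could be counted only as higher there. The direction of all 9 is also partly set by which genes were chosen, since the 2 measured ADAMTS genes with more reads in the cornea are among the 10 others described further on. In pooled tissue, fewer cells of a type and less RNA per cell cannot be told apart.

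**Figure D1:**
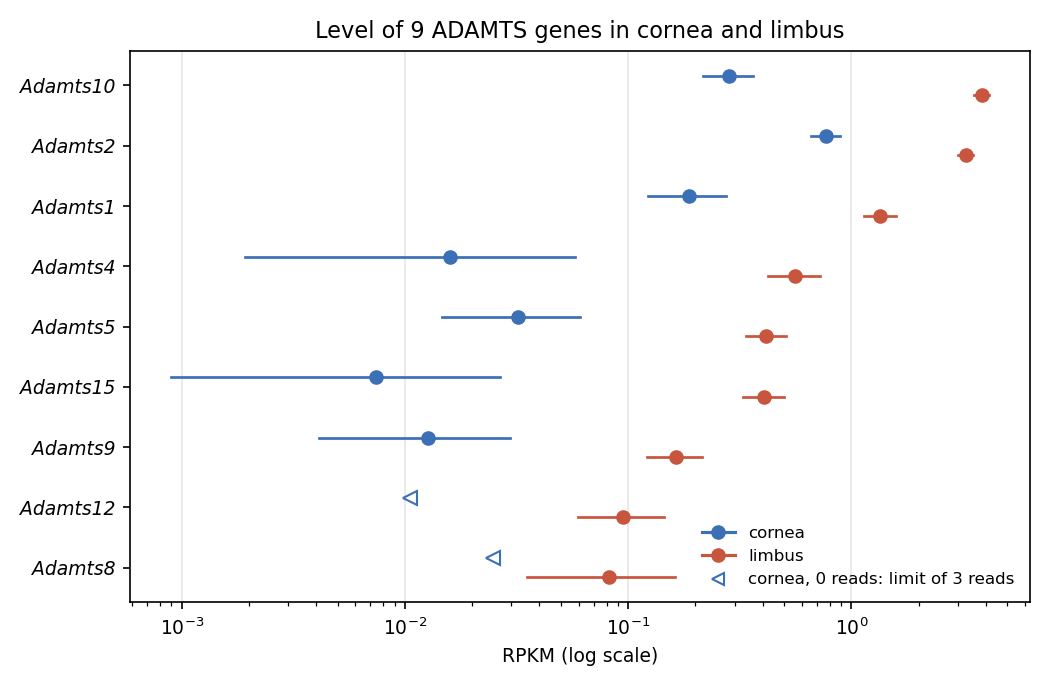
Level of each of the 9 ADAMTS genes in the cornea (blue) and in the limbus (red), in RPKM (reads per kilobase of exon per 1000000 reads on named genes) on a log axis. Points are the 1 library of each tissue, bars are exact Poisson 95% intervals, and open triangles stand for the limit of 3 reads where the cornea had 0; the limbal point lies to the right of the corneal point or limit for every gene, by most for Adamts15 and by least for Adamts8 and Adamts2.

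The largest group was formed by the genes of proteases that cut aggrecan, versican and related proteoglycans, Adamts1, Adamts4, Adamts5, Adamts8, Adamts9 and Adamts15. These 6 genes had 44 corneal and 452 limbal reads between them, and each was higher in the limbus.

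Adamts1, which cuts versican and aggrecan and is needed for ovulation, had 26 corneal and 151 limbal reads. After scaling this was a log2 ratio of 2.63 (95% interval 2.03 to 3.29), a 6.21-fold higher read count in the limbus. It was the only gene of this group with 10 or more reads in both tissues.

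The aggrecanases of cartilage, Adamts4 and Adamts5, had fewer than 10 corneal reads each. Adamts4 had 2 corneal and 57 limbal reads, a ratio of 30.5-fold whose interval ran from 8.05 to 258. Adamts5 had 9 corneal and 95 limbal reads, a log2 ratio of 3.50 (2.51 to 4.67). The intervals of this pair overlapped, so the ratios of both aggrecanases were not told apart at this depth.

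Adamts15, a versican-cutting protease, had 2 corneal and 89 limbal reads. Its ratio of 47.6-fold was the highest point value of the 9, with an interval from 12.8 to 399. Its neighbour Adamts8, a protease with weak aggrecan-cutting activity, had 0 corneal and 8 limbal reads. Set against a floor of 3 reads in the cornea, Adamts8 was at least 2.85-fold higher in the limbus by its read numbers. Counting error of the 8 limbal reads is not in that bound, and the exact interval of 0 against 8 reads began at 1.82-fold, under 2-fold, with no upper end.

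Adamts9, the longest of the 9 by coding sequence, makes a versican-cutting protease that is anchored near the cell surface. It had 5 corneal and 52 limbal reads, a log2 ratio of 3.47 (2.16 to 5.16). Its coding sequence holds 1931 codons in 39 coding exons, against 845 codons in 9 coding exons for Adamts4, which is why levels were compared per length.

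Adamts2 encodes the main procollagen N-proteinase, whose loss causes the fragile skin of dermatosparaxis. It had 187 corneal and 642 limbal reads, a log2 ratio of 1.88 (1.64 to 2.12), or 3.67-fold. It had the most corneal reads of the 9 genes and the narrowest interval. Its interval lay wholly below those of Adamts4, Adamts5, Adamts9, Adamts15, Adamts12 and Adamts10, that is in 6 of the 7 pairs of genes, of 36, whose intervals did not overlap. The remaining pair was Adamts1 and Adamts15.

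Adamts10 encodes a protease of weak activity that binds fibrillin microfibrils, the fibres that also hang the lens. It had 61 corneal and 669 limbal reads, the most limbal reads of the 9, with a log2 ratio of 3.55 (3.17 to 3.95), or 11.7-fold. Adamts10 and Adamts2 together gave 73.4% of the limbal reads of the 9 genes.

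Adamts12, whose product cuts cartilage oligomeric matrix protein, had 0 corneal and 22 limbal reads. Against the floor of 3 reads it was at least 7.84-fold higher in the limbus by its read numbers. Counting error of the 22 limbal reads is not in that bound, and the exact interval of 0 against 22 reads began lower, at 5.85-fold.

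The read numbers of Adamts1, Adamts2 and Adamts10 rest on more than the mean of the table. For the other 6 genes the mean allowed 1 pair of read numbers, whereas it allowed 2 pairs for Adamts1, 7 for Adamts10 and 8 for Adamts2, and the fold change and standard error in the table were needed to choose among them.

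Genes with low means were more often higher in the limbus than abundant genes, and the 9 genes were therefore also set beside genes of like mean. The mean of 7 of the 9 lay under 128 normalized reads, in bins where 36.7% to 58.1% of all genes were higher in the limbus by 2-fold or more. Of the 837 genes with a mean between 16 and 32, which holds Adamts4 and Adamts9, 54.0% were higher in the limbus by 2-fold or more, with a median log2 ratio of 1.27. Of the 2154 genes with a mean between 256 and 512, which holds Adamts10 and Adamts2, 11.7% were higher in the limbus by 2-fold or more, with a median of -0.06. Adamts10 at 3.55 (3.17 to 3.95) lay above the 95th percentile of those genes, 2.16, with its whole interval, and Adamts2 at 1.88 lay below it. The point values of Adamts4, 4.93 (3.01 to 8.01), and Adamts15, 5.57 (3.68 to 8.64), lay above the 95th percentile of their bins, 4.38 and 5.16. Each of the 2 rests on 2 corneal reads and has an interval that reaches below that percentile. Adamts1, Adamts2 and Adamts5 lay below theirs with their whole intervals. Adamts9 at 3.47 lay below its percentile of 4.38, but its interval (2.16 to 5.16) reached above it. Adamts8 and Adamts12 have only a lower bound, which cannot place them below a percentile. With a pseudocount of 1 normalized read Adamts8 was at 3.21, below its percentile of 3.56, and Adamts12 at 4.57, above its percentile of 4.49.

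**Figure D2:**
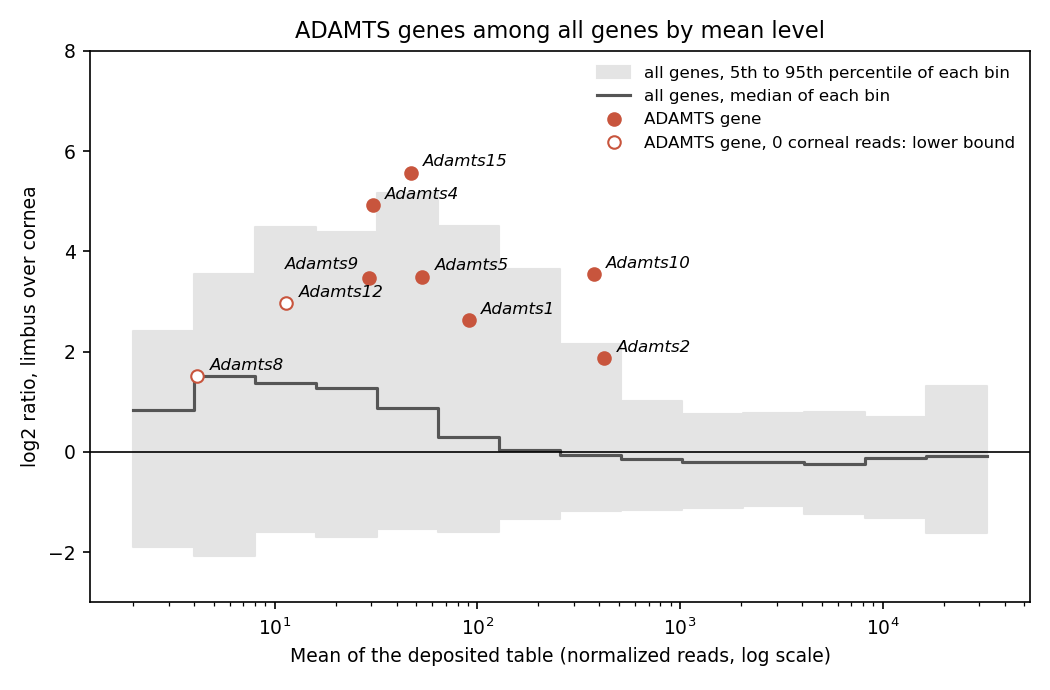
log2 ratio of reads, limbus over cornea, against the mean of the deposited table on a log axis. The line is the median and the grey band the 5th to 95th percentile of all genes in bins of 1 doubling of the mean (the last bin also holds all genes above it), and red points are the 9 ADAMTS genes, open where the cornea had 0 reads and the ratio is a lower bound. The points of Adamts4, Adamts15 and Adamts10 lie above the band, that of Adamts10 with its whole interval (not drawn), and the band itself reaches higher among genes with low means.

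Per length of exon, the order of the 9 genes differed between the tissues. In the limbus Adamts10 had the highest level, 3.83 RPKM (95% interval 3.54 to 4.13), above Adamts2 at 3.25 and Adamts1 at 1.34 (1.14 to 1.58), and none of these intervals overlapped. Adamts4 at 0.559, Adamts5 at 0.416 and Adamts15 at 0.405 followed, and the intervals of these 3 genes overlapped. Adamts9 at 0.163, Adamts12 at 0.0951 and Adamts8 at 0.0819 had the lowest limbal levels of the 9.

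In the cornea Adamts2 led the 9 genes at 0.767 RPKM (0.661 to 0.886), followed by Adamts10 at 0.283 (0.217 to 0.364) and Adamts1 at 0.188 (0.123 to 0.275), the latter pair with overlapping intervals. The 6 other genes had corneal levels of 0.0319 or less, and neighbours in that order had overlapping intervals. Adamts2 and Adamts10 thus changed places between the tissues, Adamts2 being above Adamts10 in the cornea and below it in the limbus, in both cases with intervals that did not overlap.

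The 10 other ADAMTS genes of the mouse were examined in the same way. Of these, 3 had 3 reads or fewer in both tissues (Adamts13, Adamts16 and Adamts19) and received no ratio. Of the 7 measured, 5 were higher in the limbus by 2-fold or more, 4 of them beyond counting error, and 2 were higher in the cornea beyond counting error, 1 of them by 2-fold or more. Of those 5, Adamts3, Adamts6, Adamts14 and Adamts20, named after their values were seen, had 3 corneal reads or fewer. They passed the limit of more than 3 reads in a library through the limbus alone.

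Adamts18, a gene of early eye development whose defects give a small cornea in patients, had 226 corneal and 26 limbal reads. Its log2 ratio of -3.02 (-3.67 to -2.44) made it 8.13-fold higher in the cornea. Adamts17, related to Adamts10 and likewise tied to displaced lenses, had 101 corneal and 63 limbal reads, a log2 ratio of -0.59 (-1.06 to -0.12). It was thus higher in the cornea by less than 2-fold, opposite in direction to Adamts10, and with the libraries scaled to total reads its interval reached from -0.86 to 0.09. Adamts7, which like Adamts12 cuts cartilage oligomeric matrix protein, had 7 corneal and 38 limbal reads, a log2 ratio of 2.54 (1.36 to 3.94).

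**Figure D3:**
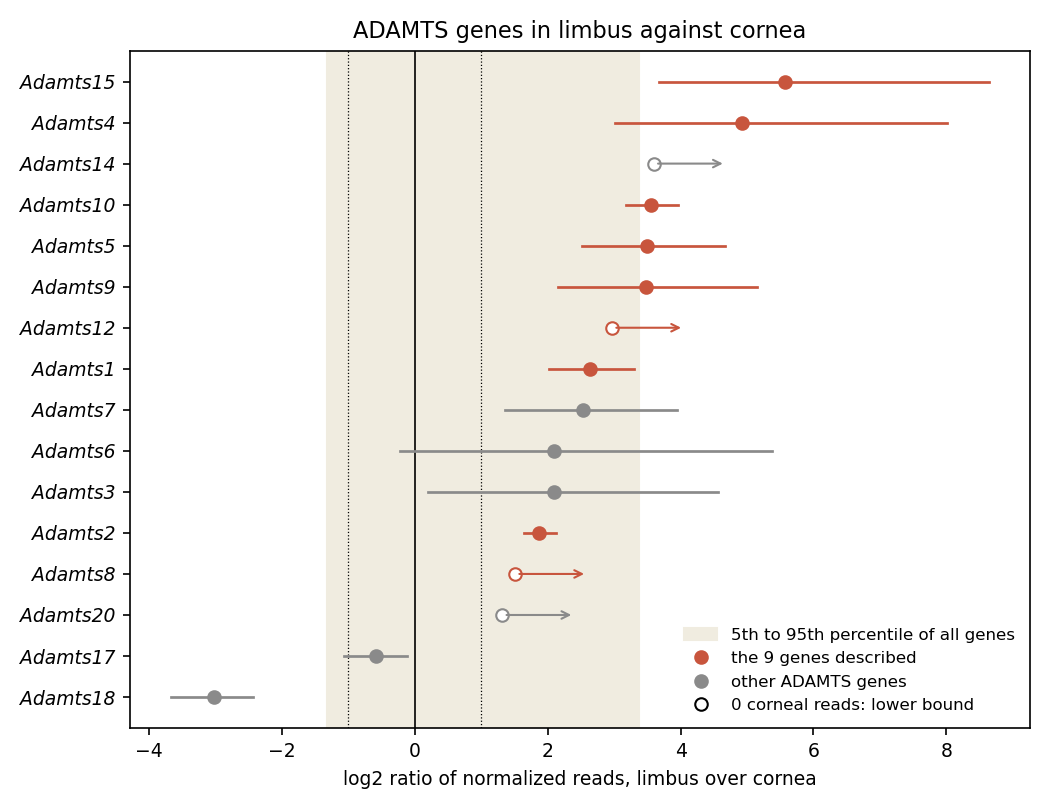
log2 ratio of normalized reads, limbus over cornea, for the 16 ADAMTS genes with more than 3 reads in a library. Red points are the 9 genes described and grey points the other ADAMTS genes, and bars are 95% intervals of counting error. Open circles with arrows are lower bounds against the floor of 3 reads where the cornea had 0 reads, without counting error. Dotted lines mark 2-fold and the shaded band spans the 5th to 95th percentile of all genes (-1.32 to 3.37). Adamts18 and Adamts17 lie left of 0 and the other 14 genes right of it.

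Over all 19 ADAMTS genes, the 9 genes took 46.0% of the reads in the cornea (292 of 635, exact 95% interval 42.1% to 49.95%) and 90.2% in the limbus (1785 of 1979, 88.8% to 91.5%). The difference between these shares depends on which genes were chosen as the 9. Adamts18 and Adamts17, the 2 genes with more corneal reads, are not among them and had 226 and 101 of the 343 corneal reads of the 10 others. Per length, the summed level of the 19 genes was 2.76 RPKM in the cornea against 11.5 in the limbus. Adamts18 had the highest level of the family in the cornea, 0.851 (0.743 to 0.969), with an interval that overlapped that of Adamts2, and stood at 0.121 in the limbus. Adamts18, Adamts2 and Adamts17 made up 30.9%, 27.8% and 18.1% of the corneal level of the family, and Adamts10, Adamts2 and Adamts1 made up 33.4%, 28.3% and 11.7% of the limbal level.

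**Figure D4:**
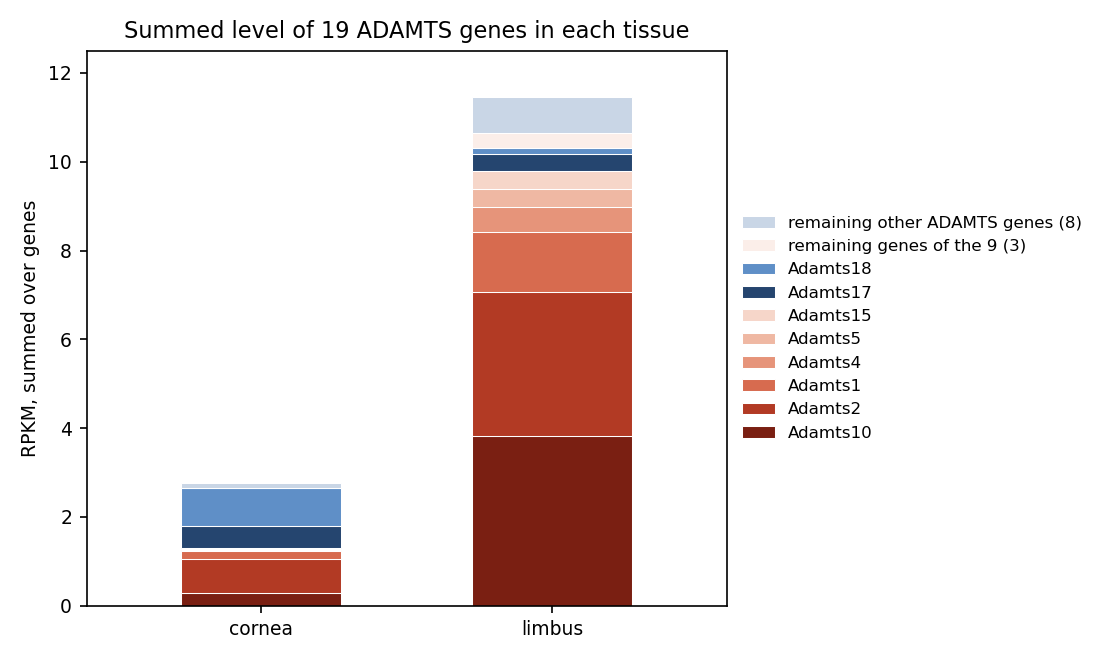
Summed level of the 19 ADAMTS genes in each tissue, in RPKM, stacked by gene. Red shades are the 9 genes described and blue shades the other 10; the bar reaches 2.76 in the cornea, with Adamts18, Adamts2 and Adamts17 as its tallest parts, and 11.5 in the limbus, with Adamts10 and Adamts2.

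The ADAMTS-like genes make related proteins without a protease domain, several of which bind fibrillin. All 7 of them (Adamtsl1, Adamtsl2, Adamtsl3, Adamtsl4, Adamtsl5, Thsd4 and Papln) had more limbal reads beyond counting error, but only Adamtsl2 and Adamtsl3 by 2-fold or more, and their median log2 ratio was 0.82. Adamtsl4, the most read of them and a gene of lens displacement, had 1230 corneal and 2036 limbal reads, a log2 ratio of 0.82 (0.72 to 0.93). Adamtsl5 had 358 and 559 (0.74, 0.54 to 0.93) and Adamtsl1 had 191 and 328 (0.88, 0.61 to 1.14). Adamtsl3 had 12 and 105 (3.23, 2.36 to 4.22) and Adamtsl2 had 1 and 33 (5.14, 2.56 to 10.5), both added after their values were seen. The intervals of this pair hold the median log2 ratio of the 9 proteases, 3.47. Adamtsl2 passed the limit of more than 3 reads in a library through the limbus alone. Over all measured genes, 35.5% had more limbal reads beyond counting error and 21.7% were higher in the limbus by 2-fold or more.

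For the counts in the lists that follow, 21.7% of all measured genes were higher in the limbus by 2-fold or more and 9.21% in the cornea. Beyond counting error these shares were 35.5% and 36.7%. Between bins of the mean, the limbal share past 2-fold ran from 3.31% to 58.1%. Among the substrates, the hyaluronan-binding proteoglycans had low levels, 0.0185 RPKM in the cornea against 0.0881 in the limbus for Vcan. This gene, which encodes versican, had 7 corneal and 27 limbal reads, a log2 ratio of 2.04 (0.81 to 3.49). Acan, which encodes aggrecan, had 0 corneal and 3 limbal reads, and Acan, Bcan and Ncan received no ratio.

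Col1a1, a procollagen gene, had a level of 80.4 RPKM in the cornea and 221 in the limbus, against 0.767 and 3.25 for Adamts2, the gene of the main, not the only, procollagen N-proteinase. Not every procollagen gene was above Adamts2, since Col2a1 lay below it in both tissues, at 0.00829 and 0.0970, and Col3a1 in the cornea, at 0.414 against 15.0 in the limbus. Of 5 genes, 4 had more limbal reads beyond counting error and 3 by 2-fold or more. Col1a1 had 13776 corneal and 30674 limbal reads (log2 ratio 1.25, 1.22 to 1.28), and Col1a2 had 14627 and 26048 (0.93, 0.90 to 0.96), whereas Col5a1 had 1805 and 1794 (0.09, -0.01 to 0.18; under either other scaling its interval lay above 0). The log2 ratio of Adamts2, 1.88, lay above those of all 3. The ratios of the remaining procollagen genes, Col3a1 and Col2a1, both outside the naming rule and added after their values were seen, lay above that of Adamts2. Col3a1 had 106 corneal and 3124 limbal reads and a log2 ratio of 4.98 (4.70 to 5.27), and Col2a1 had 2 and 19 (3.34, 1.29 to 6.49), an interval that also holds the ratio of Adamts2. Col2a1 passed the limit of more than 3 reads in a library through the limbus alone.

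Of 8 other substrates and partners, 6 were higher in the limbus by 2-fold or more and 1, Fn1, was higher in the cornea beyond counting error. Bgn, the small leucine-rich proteoglycan biglycan that Adamts4 and Adamts5 cut, had 4499 corneal and 11567 limbal reads (log2 ratio 1.46, 1.41 to 1.51). Fn1, which encodes fibronectin, had 7969 and 6325 (-0.24, -0.29 to -0.19), but scaled to total reads its log2 ratio was -0.03 (-0.08 to 0.02). Fbn1, the fibrillin that Adamts10 binds, had 150 and 611 (2.12, 1.86 to 2.39). Comp, the cartilage oligomeric matrix protein cut by Adamts12 and Adamts7, had 4 corneal and 147 limbal reads (5.30, 3.91 to 7.19) and was added after its value was seen.

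The inhibitors were mostly higher in the limbus as well, with 5 of 6 above 2-fold there and 1 above 2-fold in the cornea. Timp3, the main inhibitor of the aggrecanases, had 1290 corneal and 5749 limbal reads, a log2 ratio of 2.25 (2.16 to 2.34). Timp2 had 1912 and 6388 (1.84, 1.76 to 1.91). A2m, the protease-trapping alpha-2-macroglobulin, differed in the opposite direction, with 23888 corneal and 7030 limbal reads (-1.67, -1.71 to -1.63). Timp1 had 2 corneal and 92 limbal reads, a ratio of 49.2-fold (13.2 to 412), and Reck, a membrane-bound inhibitor, had 19 and 279, a ratio of 15.7-fold (9.86 to 26.5); both were added after their values were seen. Per length, Timp3 stood at 6.07 RPKM in the cornea against 33.3 in the limbus, and the 9 protease genes summed to 1.31 and 10.1.

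Among the proprotein convertases, which mature ADAMTS proteases, all 4 had more limbal reads beyond counting error and 1 by 2-fold or more. Furin had 1317 corneal and 1585 limbal reads (log2 ratio 0.36, 0.26 to 0.47), Pcsk6 had 508 and 906 (0.93, 0.77 to 1.09) and Pcsk7 had 665 and 727 (0.22, 0.07 to 0.38). Lrp1, the receptor through which several of these proteases are taken up, had 3499 and 4818 (0.56, 0.49 to 0.62). Sdc1 and Sdc4, syndecans of the epithelial cell surface, had more corneal reads beyond counting error, at log2 ratios of -0.50 and -0.52. Pofut2 and B3glct, which add the sugars that thrombospondin repeats need for secretion, stood at log2 ratios of 1.20 (1.01 to 1.40) and 0.95 (0.56 to 1.34).

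The proteinases that remove the other end of procollagens (Bmp1, Tll1 and Tll2) and their enhancers (Pcolce and Pcolce2) were a further list. Of 5 genes, 3 had more limbal reads beyond counting error, 2 of them, both enhancers, by 2-fold or more. None of the proteinases was higher in the limbus by 2-fold or more. Tll2 was higher in the cornea by 2-fold or more, with 25 corneal and 2 limbal reads, and passed the limit of more than 3 reads in a library through the cornea alone. Tll1 had 27 and 20, a log2 ratio of -0.34 (-1.25 to 0.55). Tll1 and Tll2 were named after their values were seen. Bmp1, the C-proteinase that acts beside Adamts2, had 533 corneal and 933 limbal reads (log2 ratio 0.90, 0.75 to 1.06). Its enhancers Pcolce and Pcolce2 had 1367 and 5453 (2.09, 2.01 to 2.18) and 180 and 506 (1.59, 1.34 to 1.84).

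**Figure D5:**
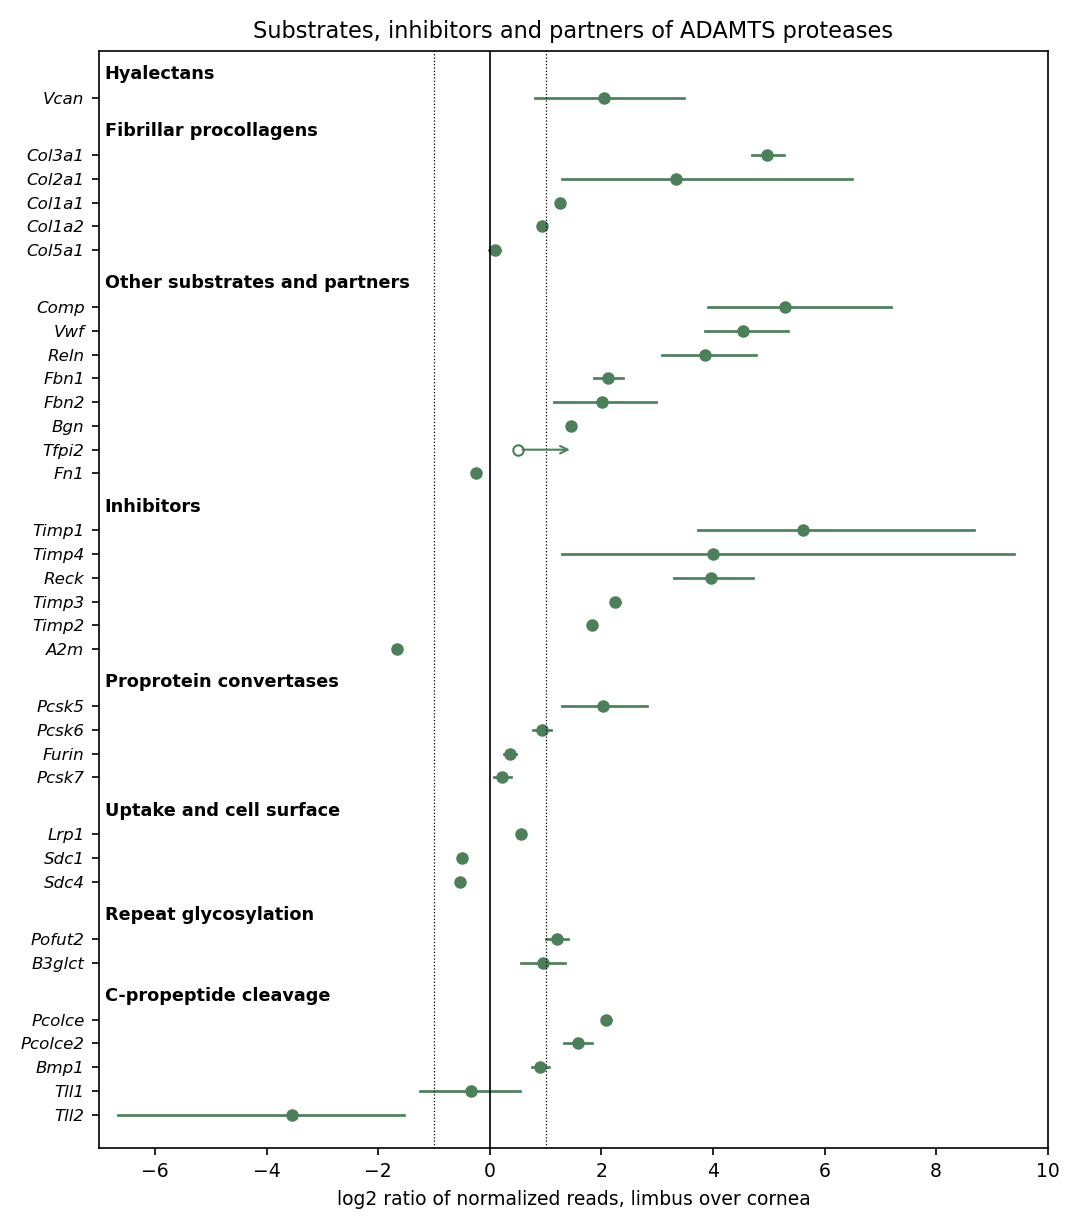
log2 ratio of normalized reads, limbus over cornea, for the 34 measured genes among substrates, inhibitors and partners of ADAMTS proteases, grouped by role. Points are ratios of the 1 library per tissue, bars 95% intervals of counting error, dotted lines 2-fold and the open circle with an arrow a lower bound without counting error. Beyond 2-fold lie 19 genes on the limbal side and Tll2 and A2m on the corneal side, against 21.7% and 9.21% of all measured genes.

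The tissues differed in more than the matrix, and lists of cell type markers are given here. With 1 library per tissue, no likeness between these lists and the 9 genes was measured. The 4 markers of corneal epithelium (Krt12, Krt5, Aldh3a1, Pax6) were all higher in the cornea beyond counting error, and the 4 of limbal and conjunctival epithelium (Krt15, Krt14, Krt19, Krt13) all higher in the limbus, which matched the tissue labels. Summed over their markers, in reads per 1000000 reads on named genes, blood vessel endothelium stood at 6.93 in the cornea and 80.6 in the limbus, smooth muscle and pericytes at 13.5 and 115, skeletal muscle at 1.07 and 390, Schwann cells at 2.38 and 63.0, melanocytes at 10.8 and 62.5 and macrophages at 28.3 and 107. In each of these 6 lists all the markers, 4 or 5, had more limbal reads beyond counting error, and no marker was at 0 reads in either tissue. Cdh5, Sox10 and Tek, the last named after its value was seen, had 3 corneal reads or fewer. These markers passed the limit of more than 3 reads in a library through the limbus alone. A sum can hide differences between its markers. Kdr gave 170 of the 181 corneal reads of the endothelial list and had a log2 ratio of 0.81. Pecam1 and Cdh5 had 6 and 3 corneal reads and log2 ratios of 7.21 and 7.23. The fibroblast list was split, with 2 of 4 higher in each tissue and sums of 138 and 147. Those higher in the limbus were Pi16, with 1 corneal and 604 limbal reads (log2 ratio 9.33), and Mfap5 (3.89), named after its value was seen. Pi16 passed the limit of more than 3 reads in a library through the limbus alone. Pdgfra (-0.45) and Dpt (-0.58) were higher in the cornea by less than 2-fold. Dpt, with 3102 and 1943 reads, was the largest part of both sums. Of the 4 keratocyte markers, 1, Dcn, had more limbal reads (log2 ratio 0.64) and 2 had more corneal reads, among them Kera (-2.99). Lum stood at -0.01, or 0.19 scaled to total reads. The sum of the 4, of which Dcn was the largest part, was 2251 in the cornea and 2627 in the limbus. The 9 ADAMTS genes stood at 11.2 and 84.3 on the same scale. The part of these cell types in the ADAMTS ratios was not tested.

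Promoter sequence was at hand for 4 of the 9 genes (Adamts1, Adamts2, Adamts9 and Adamts12, RefSeq, GRCm38.p6), and the 100 bases before the annotated start are shown for the pair with the highest limbal level among them. The 250 bases before each start were searched on both strands for TATAAA, the TATA box, GGGCGG, the GC box, TGANTCA, the AP-1 site, and CACGTG, the E-box. Capitals mark these motifs, and none overlapped another. The window of Adamts1 is chr16:85803114-85803213 on the minus strand and that of Adamts2 chr11:50601985-50602084 on the plus strand.
Adamts1: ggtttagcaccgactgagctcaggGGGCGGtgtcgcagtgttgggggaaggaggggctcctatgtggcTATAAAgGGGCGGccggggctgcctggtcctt
Adamts2: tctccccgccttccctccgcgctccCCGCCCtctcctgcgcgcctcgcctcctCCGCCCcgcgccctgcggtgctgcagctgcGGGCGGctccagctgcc

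The TATA box was found in 1 of the 4 promoters, that of Adamts1, and in 12.4% of 32851 promoters. The GC box was found in 3 of the 4, those of Adamts1, Adamts2 and Adamts9, and in 32.7% of promoters. These 3 windows held 65.6%, 78% and 71.2% G and C and that of Adamts12 63.2%, against a median of 52.4% over all promoters. The share of 32.7% is therefore not that of promoters of like base content. For Adamts9, the bases after the annotated start were not found in its GENCODE transcripts. The AP-1 letters, present in 6.75% of promoters, and the E-box letters, present in 6.02%, were not in these 4 windows.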

How the data were processed

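RNA sequencing of corneal buttons and limbal rims was analyzed from 1 deposited table. Per the study's methods, adaptors were trimmed and CLC Genomics Workbench mapped the reads to GRCm38 (mm10), and the trimmed mean of M-values is named as the normalization. For each gene the authors deposited a mean signal, in which the reads of each tissue are scaled by a size factor and averaged. The authors also deposited log2 fold changes of cornea over limbus with standard errors, and p-values. The p-values were not used, and the log2 columns served only to choose between read numbers. Whether strand was used in counting is not given in the sources used here.

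The table has 40904 rows, of which 17484 name no gene and hold no value. Its accession column matched the row's symbol in RefSeq for only 2 of 18556 accessions, so genes were taken by symbol. B3glct was found under the older symbol B3galtl and Adgre1 under Emr1, through RefSeq synonyms.

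Each mean could be split into whole reads of both tissues, with 109 cornea reads weighing as much as 102 limbus reads (size factors 1.03 and 0.967). For 6143 genes only 1 pair of read numbers gave the mean, and for 11299 more than 1 did. Among several, the pair whose shrunken fold change and standard error met the table's was taken, and 1 pair met both for 17399 genes (99.8%). Tested on simulated data for limbus against cornea, the step found the reads of 17064 of 17064 genes. Those data were made with the same model and size factors that the step inverts. The test therefore cannot show whether the deposited values follow that model. Read numbers are thus derived values, not a count table.

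Ratios are limbus over cornea after the size factors, with 95% intervals from the limbal share by the exact Clopper-Pearson method, which cover counting error only. A library at 0 was set to a floor of 3 reads, and no ratio was formed with 3 reads or fewer in both. Levels are reads per kilobase of merged exons (GENCODE, GRCm38) per 1000000 reads on named genes (RPKM), with exact Poisson intervals. They are scaled to total reads and not by the size factors. The genes named are the 9, up to 3 genes of each list with the most reads, and Timp3, Acan, Vcan and Lrp1, beside a few added after their values were seen and marked so. The 9 genes and all lists were chosen with earlier results of these data known, and the bins by mean were added after the values were seen. Alternatives were scaling to total reads, a trimmed mean of M-values, a pseudocount of 1 normalized read, the mean alone, minimum means of 10 and 50, and the longest transcript as length. Python 3.11.15, numpy 2.4.6, pandas 2.3.3, scipy 1.17.1 and matplotlib 3.10.9 were used.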

Additional observations from a re-analysis of the deposited data

How the results depend on the processing

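No paired analysis was possible because no numbered sample has a value of its own in the table, and for the same reason no sample could be left out in turn. The labels give both tissues the same numbers, but do not say what the numbers stand for or that they mark pairs. The number of ADAMTS genes at 2-fold or more in the limbus was 9 under either scaling and with the pseudocount, and 8 with a mean of at least 10, which leaves out Adamts8. Their median log2 ratio was 3.68 scaled to total reads, 3.49 by a trimmed mean of M-values and 3.35 with the pseudocount. Scaling to total reads moved every log2 ratio by 0.21 towards the limbus, and the trimmed mean by 0.02. Of all genes that differed beyond counting error, 49.2% had more limbal reads, 63.5% when scaled to total reads and 50.4% by the trimmed mean. Using the mean alone, the lowest log2 ratio that it allows was -1.37 for Adamts1, -4.71 for Adamts2 and -3.55 for Adamts10, so their direction depends on the fold change and standard error of the table, by the construction of that alternative. The share of all genes at 2-fold or more in the limbus was 18.0% with a mean of at least 10, 11.9% with a mean of at least 50 and 24.5% scaled to total reads. In the cornea it was 8.55% with a mean of at least 50 and 6.14% scaled to total reads. The scalings of these shares were chosen after seeing the data. With the longest transcript as length, 3 of the 9 genes, Adamts4, Adamts5 and Adamts15, took another rank in the limbus. Depth limits the ratios most for the 4 genes with 3 corneal reads or fewer, Adamts4, Adamts8, Adamts12 and Adamts15.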
